A study of Mus musculus with 8 samples.

Results

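The mouse genes of cholesterol and fatty acid synthesis described here number 31 of the 50600 genes in the count table, and they were taken by their symbols from a list that covers the pathway from acetyl-CoA to cholesterol, its sterol-sensing regulators, and the main enzymes that make and modify fatty acids. RNA was sequenced from 2 related lines of malignant peripheral nerve sheath tumor (MPNST) cells. NF1-MET came from a *Met*-amplified tumor of the genotype *Nf1* fl/ko;lox-stop-lox MET tg/+;Plp-creERT tg/+, in which Cre under the *Plp* promoter acts in glial cells, and the study describes *Cdkn2a* as deleted in this line. NF1-MET;sgP53 was made from it with a lentiviral CRISPR guide against *Trp53* followed by selection with puromycin, so both lines share the *Nf1* loss, the MET transgene and the *Cdkn2a* deletion. The labels give the genotype of NF1-MET as WT and that of NF1-MET;sgP53 as Trp53 KO. Cells of both lines were grown with serum and were then given DMSO (vehicle) or 100 nM of the MET kinase inhibitor capmatinib for 24 h, with 2 replicate libraries in each of the 4 groups. The replicates are labelled as biological and were treated in duplicate, and p-values measure only the spread between such cultures. Each genotype was 1 line, so p53 loss and any other difference between the lines cannot be told apart. The study also describes NF1-MET cells given the same lentiviral vector without a guide. The column names of the NF1-MET libraries hold the letters EV, which could stand for this empty vector, while the labels do not say that the sequenced cells carried it.

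Cells make cholesterol from acetyl-CoA by way of mevalonate, isoprenoid units and squalene, and the isoprenoid units also serve ubiquinone, dolichol and the lipid anchors of small GTPases. The transcription factors encoded by *Srebf1* and *Srebf2* switch on these genes when the sterol sensor Scap carries them from the endoplasmic reticulum to the Golgi, and Insig proteins hold Scap back when sterols are plentiful. Fatty acid synthesis starts from the same acetyl-CoA, which Acly makes from citrate, and Schwann cells use both pathways to build myelin.

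Total counts were between 30.1 M and 42.8 M per library, and levels are given in CPM, the counts of a gene per 1000000 counts of its library, after scaling with edgeR's TMM factors, which were between 0.898 and 1.10. All 31 genes passed the filter on low counts (10 or more in 2 or more of the 8 libraries), and their lowest count in any library was 259, for *Fdps*. *Gm42418*, which overlaps a ribosomal RNA gene, took from 1.11% to 13.1% of the counts of a library. *Trp53* averaged 188 CPM (vehicle) and 127 CPM (capmatinib) in NF1-MET, and 98.8 CPM and 68.4 CPM in NF1-MET;sgP53, so the targeted transcript was lower in the edited line and still counted. *Met* was also lower with capmatinib, with log2 fold changes of -0.64 in NF1-MET (SE 0.0242, adjusted p = 2.47e-21, edgeR) and -0.47 in NF1-MET;sgP53 (SE 0.0292, adjusted p = 2.54e-12, edgeR). Of the 8 Schwann lineage markers 5 passed the filter, with summed levels of 448 to 496 CPM, and *Nes* alone was at 427 to 473 CPM, whereas *Sox10* and *Ngfr* reached at most 0.176 CPM and *S100b* at most 0.492 CPM, so these 3 defining markers of that lineage were near 0 in these libraries.

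Because many of the 31 genes moved together, the sequences at their transcription starts are described before their levels. RefSeq windows from 250 bases before to 50 bases after a start (build GRCm38.p6) were matched by symbol for 25 of the 31 genes, with 33 windows in all. The windows of 4 genes are shown 5′ to 3′, chosen because *Fasn* and *Elovl6* had the largest falls with capmatinib in both lines, *Tm7sf2* had the largest rise, and *Hmgcs1* had no change that passed the test in either line. Capitals mark CCAAT on either strand, the site bound by NF-Y, and TCACNCCAC, a form of the sterol response element.
Fasn, chr11:120824498-120824797, minus strand: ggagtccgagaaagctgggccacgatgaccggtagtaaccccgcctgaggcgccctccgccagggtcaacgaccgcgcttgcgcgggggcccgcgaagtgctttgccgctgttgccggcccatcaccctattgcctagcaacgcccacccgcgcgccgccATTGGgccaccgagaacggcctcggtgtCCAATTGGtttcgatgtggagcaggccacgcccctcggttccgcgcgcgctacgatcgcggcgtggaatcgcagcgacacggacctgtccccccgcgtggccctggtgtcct
Elovl6, chr3:129532136-129532435, plus strand: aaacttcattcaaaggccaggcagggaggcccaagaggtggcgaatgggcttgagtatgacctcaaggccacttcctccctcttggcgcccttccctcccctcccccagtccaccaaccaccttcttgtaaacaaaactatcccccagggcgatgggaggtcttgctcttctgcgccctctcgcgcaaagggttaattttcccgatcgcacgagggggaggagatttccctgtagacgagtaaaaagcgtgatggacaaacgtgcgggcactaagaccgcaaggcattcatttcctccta
Tm7sf2, chr19:6067801-6068100, minus strand: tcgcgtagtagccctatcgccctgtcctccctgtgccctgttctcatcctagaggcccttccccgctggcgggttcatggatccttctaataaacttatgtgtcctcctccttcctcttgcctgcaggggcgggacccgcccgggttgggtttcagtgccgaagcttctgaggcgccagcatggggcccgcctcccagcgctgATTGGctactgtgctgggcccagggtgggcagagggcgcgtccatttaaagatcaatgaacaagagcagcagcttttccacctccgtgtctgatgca
Hmgcs1, chr13:119690101-119690400, plus strand: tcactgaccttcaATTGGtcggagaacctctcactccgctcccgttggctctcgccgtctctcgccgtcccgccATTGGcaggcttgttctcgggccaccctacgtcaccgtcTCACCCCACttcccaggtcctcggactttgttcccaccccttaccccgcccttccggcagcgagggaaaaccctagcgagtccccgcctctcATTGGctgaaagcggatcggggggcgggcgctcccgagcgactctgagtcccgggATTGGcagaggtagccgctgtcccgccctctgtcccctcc

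The letters TCACNCCAC, a form of the sterol response element, were searched on both strands. They were found in the windows of 1 of the 25 genes, *Hmgcs1*, where TCACCCCAC started at -137 from the transcription start. Other forms of the element were not searched, so a window without these letters was not shown to lack one. The same letters occurred in 1.24% of all 32851 promoter windows of this length. CCAAT was present in at least 1 window of 21 of the 25 genes (84%), beside 43% of the 10187 genes with a window that passed the count filter and 37.4% of all windows. *Fasn* held 3 copies, the first at -90 and the last at -59, *Hmgcs1* held 4, and *Tm7sf2* held 1 at -47, whereas the windows of *Acat2*, *Scap*, *Acaca* and *Elovl6* held none. The window of *Acaca* began at chr11:84195188, inside the gene (chr11:84129672-84401651), so the first bases of that gene were not searched. The GC box GGGCGG was in windows of 20 of the 25 genes (80%) and of 69.2% of the genes that passed the filter. The E box CACGTG was found for 5 of the 25 genes (20%) and for 11.6% of the genes that passed the filter. None of the 4 motifs contains another, neighbouring matches can overlap by some letters, and a match is a description of these letters and not a sign of binding. Windows of *Fdps*, *Fdft1*, *Sqle*, *Stard4*, *Scd1* and *Scd2* were not used here.

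To compare levels between genes, CPM was divided by the length of each gene's exons in kilobases. *Scd2*, a stearoyl-CoA desaturase that makes oleate, was at 415 ± 4.03 CPM per kb in NF1-MET with vehicle (SD, n = 2), and its paralog *Scd1* at 199 ± 3.33 CPM per kb. They were followed by *Hmgcs1*, the cytosolic HMG-CoA synthase, at 87.8 ± 2.58 CPM per kb, by *Cyp51*, which demethylates lanosterol, at 86.1 ± 1.02 CPM per kb and by *Acly* at 83.4 ± 0.570 CPM per kb, and *Hmgcs1* and *Cyp51* lay closer to each other than the SD of *Hmgcs1*. The lowest levels were those of *Acaca* (5.82 ± 0.101 CPM per kb), *Tm7sf2* (2.73 ± 0.244 CPM per kb) and *Fdps* (2.51 ± 0.0935 CPM per kb), and the difference between *Tm7sf2* and *Fdps* was less than the SD of *Tm7sf2*. Reads of *Fdps* could have been lost to other genes, since 37.9% of its 50-base exon words occur elsewhere in the transcripts and 1124 of its exon bases are shared with *Gm43738* on the same strand, which was listed at 0 counts in all 8 libraries. Of the words of *Acaca*, 49.1% occur in *Gm5182*, so reads of *Acaca* could have been lost as well. Together the 31 genes took 7922 and 7953 CPM in vehicle-treated NF1-MET cells, 6964 and 6936 CPM under capmatinib, and in NF1-MET;sgP53 cells 7937 and 7930 CPM (vehicle) and 7045 and 7067 CPM (capmatinib). Both capmatinib groups lay below both vehicle groups, and in bulk samples fewer cells of a type and less RNA per cell cannot be told apart.

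**Figure D1:**
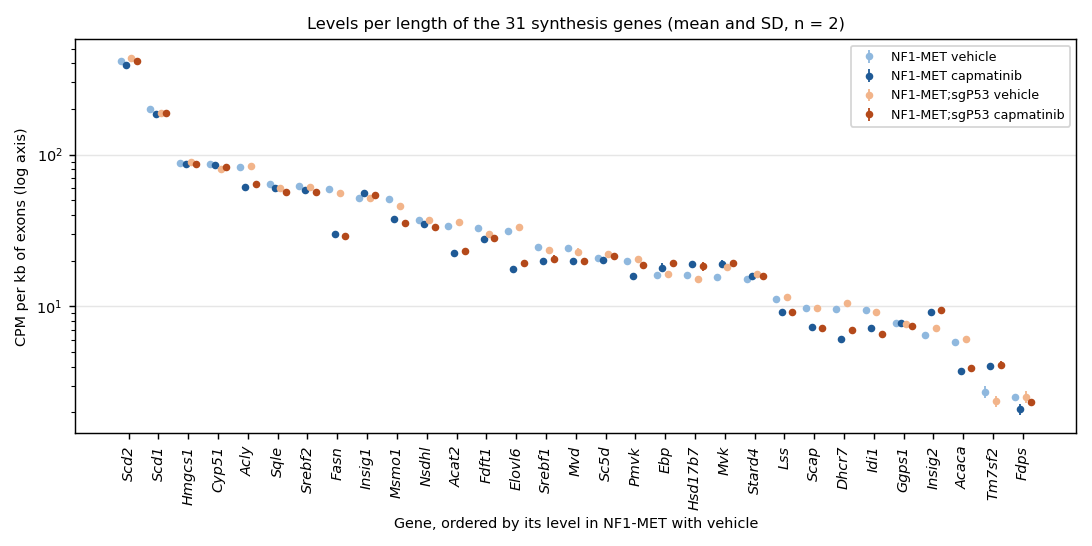
Mean level of each of the 31 genes in CPM per kb of exons (log axis), with SD bars from 2 libraries, in the 4 groups. *Scd2* and *Scd1* lie highest and *Tm7sf2* and *Fdps* lowest in NF1-MET with vehicle, and the capmatinib points lie below the vehicle points for *Fasn* (29.8 against 58.9 CPM per kb in NF1-MET) and *Elovl6* (17.6 against 31.3 CPM per kb).

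The comparison of capmatinib with vehicle asked which of these transcripts change when MET is inhibited. Most of them fell, led by *Fasn*, *Elovl6*, *Dhcr7*, *Acaca* and *Acat2*, each of which fell to 65.9% of the vehicle level or less in NF1-MET. A smaller set rose, led by *Tm7sf2* and *Insig2*, and *Hmgcs1*, *Cyp51*, *Sc5d*, *Ggps1* and *Stard4* did not pass the test in either line. By the quasi-likelihood test of edgeR, adjusted over all genes by the Benjamini-Hochberg method at a threshold of 0.05, 20 of the 31 genes were lower, 6 were higher and 5 did not pass in NF1-MET, where 34.7% of the 14496 genes tested were lower and 35.5% were higher. In NF1-MET;sgP53, 18 were lower, 5 were higher and 8 did not pass, where 33.4% of the 14497 genes tested were lower and 34.2% were higher. The median log2 fold change of the 31 genes was -0.12 in NF1-MET, beside 0.002 for all genes tested, and -0.11 in NF1-MET;sgP53, beside 0.0049. With library totals in place of TMM factors the all-gene medians moved to -0.18 and -0.12 and those of the 31 genes to -0.30 and -0.23, so that 2 genes rather than 6 and 2 rather than 5 were higher, and of the 6 fatty acid synthesis genes 6 and 4 stayed lower, while over all genes 3508 were higher and 6381 lower in NF1-MET, with 3260 higher and 4933 lower in NF1-MET;sgP53. All adjusted p-values below come from this test.

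Fatty acid synthesis was the group with the largest falls. All 6 of its genes were lower in NF1-MET, 5 of 6 were lower in NF1-MET;sgP53, and none was higher in either line by edgeR's test, by DESeq2 or at an unadjusted p under 0.05, with median log2 fold changes of -0.55 and -0.52. The summed level of the 6 genes went from 4618 and 4632 CPM to 3880 CPM in both capmatinib libraries of NF1-MET, and from 4683 and 4688 CPM to 4029 and 4035 CPM in NF1-MET;sgP53.

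*Fasn* (ENSMUSG00000025153, chr11:120805846-120824547 in mm10), the fatty acid synthase that builds palmitate, was at 643 and 648 CPM (vehicle) and 324 and 329 CPM (capmatinib) in NF1-MET cells, and at 613 and 607 CPM (vehicle) and 315 and 322 CPM (capmatinib) in NF1-MET;sgP53 cells. Every capmatinib library lay below every vehicle library, and in NF1-MET;sgP53 the mean with capmatinib was 52.2% of that with vehicle. The log2 fold changes were -0.999 (SE 0.0222, adjusted p = 1.45e-27) for NF1-MET and -0.94 (SE 0.0275, adjusted p = 4.40e-18) for NF1-MET;sgP53. *Elovl6* (ENSMUSG00000041220, chr3:129532355-129638495), which elongates palmitate to stearate, was at 204 and 199 CPM (vehicle) and 115 and 112 CPM (capmatinib) in NF1-MET cells, and at 218 and 213 CPM (vehicle) and 122 and 127 CPM (capmatinib) in NF1-MET;sgP53 cells. Its log2 fold changes were -0.85 (SE 0.0289, adjusted p = 1.84e-22) for NF1-MET and -0.79 (SE 0.0327, adjusted p = 1.93e-15) for NF1-MET;sgP53, and the vehicle and capmatinib libraries did not overlap. *Acaca* (ENSMUSG00000020532, chr11:84129672-84401651), the acetyl-CoA carboxylase that makes malonyl-CoA, was at 98.2 and 101 CPM (vehicle) and 63.0 and 65.2 CPM (capmatinib) in NF1-MET cells, and at 102 and 106 CPM (vehicle) and 65.1 and 68.2 CPM (capmatinib) in NF1-MET;sgP53 cells. It fell in both lines, with log2 fold changes of -0.65 (SE 0.0333, adjusted p = 1.04e-17) for NF1-MET and -0.64 (SE 0.0364, adjusted p = 6.29e-13) for NF1-MET;sgP53. Of its 50-base exon words, 49.1% also occur in *Gm5182*, which had 170 to 495 counts per library, so reads common to both could have been left out of either. *Acly* (ENSMUSG00000020917, chr11:100476353-100528000), the ATP-citrate lyase, was at 438 and 442 CPM (vehicle) and 323 and 325 CPM (capmatinib) in NF1-MET cells, and at 444 and 449.8 CPM (vehicle) and 335 and 344 CPM (capmatinib) in NF1-MET;sgP53 cells. Its log2 fold changes were -0.46 (SE 0.0227, adjusted p = 4.13e-18) for NF1-MET and -0.40 (SE 0.0287, adjusted p = 3.92e-11) for NF1-MET;sgP53.

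The 2 desaturases, the most abundant of the 31 genes by level per kb, had smaller log2 fold changes. *Scd1* was at 984 and 961 CPM (vehicle) and 916 and 898 CPM (capmatinib) in NF1-MET cells, and at 928 and 921 CPM (vehicle) and 929 and 901 CPM (capmatinib) in NF1-MET;sgP53 cells. It was lower in NF1-MET with a log2 fold change of -0.12 (SE 0.0201, adjusted p = 4.86e-06), and in NF1-MET;sgP53 its libraries overlapped and the log2 fold change was -0.014 (SE 0.0239, adjusted p = 0.618). *Scd2* was at 2251 and 2282 CPM (vehicle) and 2138 and 2151 CPM (capmatinib) in NF1-MET cells, and at 2379 and 2391 CPM (vehicle) and 2262 and 2273 CPM (capmatinib) in NF1-MET;sgP53 cells, with log2 fold changes of -0.10 (SE 0.0162, adjusted p = 3.75e-06) for NF1-MET and -0.073 (SE 0.0189, adjusted p = 0.00175) for NF1-MET;sgP53. Between 3.79% and 4.61% of the 50-base words of *Scd1* and *Scd2* are shared with each other, *Scd3* or *Scd4*, and the last 2 had at most 32 counts in any library.

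**Figure D2:**
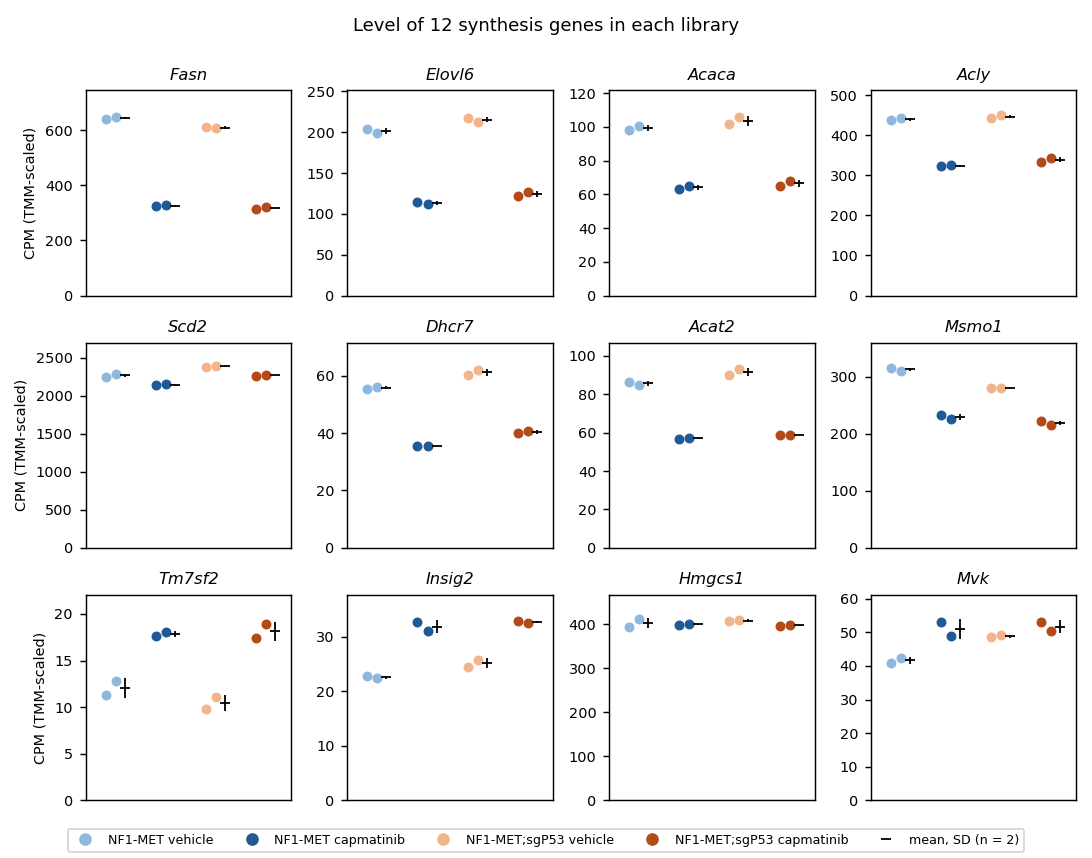
Level of 12 of the 31 genes in CPM (linear axes from 0) in each of the 8 libraries, with the mean and SD of each group of 2 beside the points. *Fasn*, *Elovl6*, *Acaca*, *Acly*, *Dhcr7*, *Acat2* and *Msmo1* lie lower with capmatinib in both lines, *Tm7sf2* and *Insig2* lie higher, and *Hmgcs1* lies between 395 and 411 CPM in all 8 libraries.

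In the early steps from acetyl-CoA to the isoprenoids, 5 of 8 genes were lower and 1 was higher in NF1-MET, and 4 were lower in NF1-MET;sgP53, where none was higher by edgeR's test or at an unadjusted p under 0.05. These counts stand beside all-gene shares of 34.7% lower and 35.5% higher for NF1-MET, 33.4% lower and 34.2% higher for NF1-MET;sgP53. With library totals 7 of the 8 were lower and 0 higher in NF1-MET, and 4 and 0 in the other line. The falls began with *Acat2* (ENSMUSG00000023832, chr17:12942890-12960747), the thiolase that joins 2 acetyl-CoA, at 86.3 and 84.8 CPM (vehicle) and 56.7 and 57.3 CPM (capmatinib) in NF1-MET cells, and at 90.0 and 92.9 CPM (vehicle) and 58.8 and 58.6 CPM (capmatinib) in NF1-MET;sgP53 cells. Its vehicle and capmatinib libraries did not overlap, and the log2 fold changes were -0.60 (SE 0.0347, adjusted p = 2.31e-16) for NF1-MET and -0.64 (SE 0.0337, adjusted p = 1.47e-13) for NF1-MET;sgP53. Because 40.7% of its 50-base words are shared with *Acat3* or *Tcp1*, its counts could have been split among them, with *Tcp1* at 10758 to 23049 counts per library and *Acat3* at 13 to 43. *Hmgcs1* (ENSMUSG00000093930, chr13:119690379-119708260) takes the next step and was at 395 and 411 CPM (vehicle) and 399 and 401 CPM (capmatinib) in NF1-MET cells, and at 407 and 410.2 CPM (vehicle) and 396 and 399 CPM (capmatinib) in NF1-MET;sgP53 cells. Its log2 fold changes of -0.029 (95% interval -0.076 to 0.017) and -0.039 (95% interval -0.093 to 0.016) did not pass the test, and the intervals exclude a fall of the size seen for *Acat2*.

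*Mvk*, the mevalonate kinase (ENSMUSG00000041939, chr5:114444269-114460591), was the only early gene that rose. It was at 40.9 and 42.4 CPM (vehicle) and 53.0 and 48.9 CPM (capmatinib) in NF1-MET cells, and at 48.5 and 49.1 CPM (vehicle) and 53.1 and 50.3 CPM (capmatinib) in NF1-MET;sgP53 cells. The log2 fold change was 0.27 (SE 0.0454, adjusted p = 4.10e-06) in NF1-MET, while 0.082 (SE 0.0405, adjusted p = 0.0780) in NF1-MET;sgP53 did not pass. The rise in NF1-MET was not called with library totals (0.085). *Pmvk*, the phosphomevalonate kinase, fell and went from 34.9 and 33.6 CPM to 27.1 and 27.6 CPM in NF1-MET, with log2 fold changes of -0.34 (SE 0.0517, adjusted p = 7.19e-07) for NF1-MET and -0.14 (SE 0.0482, adjusted p = 0.0162) for NF1-MET;sgP53. Its call in NF1-MET;sgP53 was lost without vehicle replicate 1 (-0.13) or capmatinib replicate 1 (-0.12). *Mvd*, which decarboxylates mevalonate diphosphate to isopentenyl diphosphate, went from 45.1 and 44.7 CPM to 38.0 and 35.6 CPM in NF1-MET, with log2 fold changes of -0.31 (SE 0.0463, adjusted p = 5.58e-07) for NF1-MET and -0.20 (SE 0.0471, adjusted p = 8.27e-04) for NF1-MET;sgP53. *Idi1*, the isomerase that supplies dimethylallyl diphosphate, was at 32.8 and 33.2 CPM (vehicle) and 25.8 and 25.0 CPM (capmatinib) in NF1-MET cells, and at 32.5 and 31.9 CPM (vehicle) and 23.3 and 22.8 CPM (capmatinib) in NF1-MET;sgP53 cells. Its log2 fold changes were -0.40 (SE 0.0529, adjusted p = 6.46e-08) for NF1-MET and -0.48 (SE 0.0535, adjusted p = 4.56e-08) for NF1-MET;sgP53, and 20% of its 50-base words occur in other transcripts, chiefly those of *Gm13502*, which had 4 to 10 counts per library. *Fdps*, the farnesyl diphosphate synthase, was at 10.3 and 10.8 CPM with vehicle and 9.36 and 8.28 CPM with capmatinib in NF1-MET, a log2 fold change of -0.29 (SE 0.0910, adjusted p = 0.00571) that no longer passed without capmatinib replicate 2 (-0.19), and the value of -0.11 (SE 0.0882, adjusted p = 0.297) in NF1-MET;sgP53 did not pass. *Ggps1*, which makes geranylgeranyl diphosphate for protein prenylation, was between 34.7 and 37.7 CPM in all 8 libraries, and its 95% intervals were -0.093 to 0.094 and -0.15 to 0.036 on the log2 scale.

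From squalene to cholesterol, 6 of 11 genes were lower and 3 were higher in each line. The shares of all genes tested were 34.7% lower and 35.5% higher (NF1-MET), then 33.4% lower and 34.2% higher (NF1-MET;sgP53). With library totals 1 of the 11 was higher and 8 lower in NF1-MET. In the NF1-MET;sgP53 cells 1 was higher and 4 were lower, so 1 rise and not 3 was then called in each. *Fdft1*, the squalene synthase, went from 136 and 139.5 CPM to 118 and 119 CPM in NF1-MET and had log2 fold changes of -0.24 (SE 0.0288, adjusted p = 8.59e-09) for NF1-MET and -0.10 (SE 0.0340, adjusted p = 0.00992) for NF1-MET;sgP53, the latter lost without vehicle replicate 2 (-0.092). It shares 774 exon bases with *Ctsb* on the opposite strand, which had 13476 to 18352 counts per library, and reads of such a pair cannot be told apart if strand was not used. *Sqle*, the squalene epoxidase, moved little, from 353 and 354 CPM to 339 and 331 CPM in NF1-MET, and had log2 fold changes of -0.10 (SE 0.0232, adjusted p = 4.88e-04) for NF1-MET and -0.077 (SE 0.0293, adjusted p = 0.0250) for NF1-MET;sgP53, the latter lost without vehicle replicate 1 (-0.062) or capmatinib replicate 1 (-0.065). *Lss*, which cyclizes the epoxide to lanosterol, was at 119 and 122 CPM (vehicle) and 96.9 and 100.0 CPM (capmatinib) in NF1-MET cells, and at 125 and 124 CPM (vehicle) and 99.0 and 97.7 CPM (capmatinib) in NF1-MET;sgP53 cells. Its log2 fold changes were -0.31 (SE 0.0298, adjusted p = 9.14e-11) for NF1-MET and -0.34 (SE 0.0349, adjusted p = 1.08e-08) for NF1-MET;sgP53. *Cyp51* (ENSMUSG00000001467, chr5:4081145-4104746), the enzyme after it, was at 384 and 377 CPM (vehicle) and 384 and 373 CPM (capmatinib) in NF1-MET cells, and at 359.5 and 354 CPM (vehicle) and 368 and 362 CPM (capmatinib) in NF1-MET;sgP53 cells. Its vehicle and capmatinib libraries overlapped in NF1-MET, and the 95% intervals of its log2 fold change were -0.07 to 0.022 and -0.024 to 0.088.

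*Tm7sf2* (ENSMUSG00000024799, chr19:6062821-6068373), a sterol reductase that removes the double bond at carbon 14, had the largest rise of the 31 genes. It was at 11.3 and 12.8 CPM (vehicle) and 17.6 and 18.1 CPM (capmatinib) in NF1-MET cells, and at 9.80 and 11.1 CPM (vehicle) and 17.4 and 18.9 CPM (capmatinib) in NF1-MET;sgP53 cells. The log2 fold changes were 0.55 (SE 0.0749, adjusted p = 9.31e-08) for NF1-MET and 0.79 (SE 0.0805, adjusted p = 1.14e-08) for NF1-MET;sgP53, and no capmatinib library overlapped a vehicle library. Of its exon bases, 532 are shared with *Vps51* on the same strand, which had 353 to 628 counts per library. *Msmo1*, which with *Nsdhl* and *Hsd17b7* removes the methyl groups at carbon 4 of the sterol, was at 315 and 311 CPM (vehicle) and 233 and 226 CPM (capmatinib) in NF1-MET cells, and at 281 and 280.0 CPM (vehicle) and 222 and 216 CPM (capmatinib) in NF1-MET;sgP53 cells. It fell with log2 fold changes of -0.46 (SE 0.0245, adjusted p = 2.40e-17) for NF1-MET and -0.36 (SE 0.0303, adjusted p = 5.80e-10) for NF1-MET;sgP53. Its partner *Nsdhl* fell by less, from 105 and 105 CPM to 100.5 and 97.3 CPM in NF1-MET, with log2 fold changes of -0.11 (SE 0.0298, adjusted p = 0.00220) for NF1-MET and -0.15 (SE 0.0361, adjusted p = 0.00108) for NF1-MET;sgP53, the former lost without capmatinib replicate 2 (-0.080). The third enzyme of this step, *Hsd17b7*, went the other way, from 84.7 and 79.6 CPM to 98.0 and 97.2 CPM in NF1-MET and from 79.4 and 74.4 CPM to 98.0 and 89.1 CPM in NF1-MET;sgP53, with log2 fold changes of 0.23 (SE 0.0328, adjusted p = 1.79e-07) for NF1-MET and 0.28 (SE 0.0425, adjusted p = 3.77e-06) for NF1-MET;sgP53. With library totals these were 0.048 and 0.16, and neither passed.

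*Ebp*, the sterol isomerase, went from 38.5 and 36.3 CPM to 39.5 and 43.7 CPM in NF1-MET and had log2 fold changes of 0.15 (SE 0.0499, adjusted p = 0.0103) for NF1-MET and 0.23 (SE 0.0429, adjusted p = 6.13e-05) for NF1-MET;sgP53, and with library totals in place of TMM factors its value in NF1-MET turned to -0.044. Without capmatinib replicate 2 of NF1-MET it was 0.065 there, which did not pass, and it did not pass without vehicle replicate 2 either, at 0.11. *Sc5d*, the lathosterol desaturase, was between 97.9 and 108 CPM in all 8 libraries and did not pass in either line, but passed in NF1-MET without vehicle replicate 1 (-0.11). The last enzyme of the route, *Dhcr7* (ENSMUSG00000058454, chr7:143823145-143848410), which makes cholesterol from 7-dehydrocholesterol, was at 55.4 and 56.1 CPM (vehicle) and 35.5 and 35.3 CPM (capmatinib) in NF1-MET cells, and at 60.2 and 62.0 CPM (vehicle) and 39.9 and 40.8 CPM (capmatinib) in NF1-MET;sgP53 cells. It had the largest fall among the sterol genes of NF1-MET, with log2 fold changes of -0.67 (SE 0.0429, adjusted p = 2.89e-15) for NF1-MET and -0.60 (SE 0.0395, adjusted p = 7.49e-12) for NF1-MET;sgP53.

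Among the regulators, 3 of 6 genes were lower and 2 were higher in each line. All genes tested gave 34.7% lower and 35.5% higher for NF1-MET, and 33.4% lower and 34.2% higher for the other line. Whether these 6 genes differ from those shares was not tested. With library totals 4 of the 6 were lower and 1 higher in NF1-MET, 2 and 1 in the other line. *Srebf1* (ENSMUSG00000020538, chr11:60199089-60222581), whose products act mainly on fatty acid genes, was at 137 and 141 CPM (vehicle) and 111 and 112 CPM (capmatinib) in NF1-MET cells, and at 134 and 133 CPM (vehicle) and 112 and 120.3 CPM (capmatinib) in NF1-MET;sgP53 cells. Its log2 fold changes were -0.34 (SE 0.0291, adjusted p = 4.86e-12) for NF1-MET and -0.20 (SE 0.0374, adjusted p = 5.38e-05) for NF1-MET;sgP53. *Srebf2*, whose product acts mainly on cholesterol genes, had the highest CPM of the 6 and fell by less, from 444 and 446 CPM to 419.7 and 422 CPM in NF1-MET, with log2 fold changes of -0.10 (SE 0.0222, adjusted p = 2.39e-04) for NF1-MET and -0.11 (SE 0.0291, adjusted p = 0.00279) for NF1-MET;sgP53. *Scap* (ENSMUSG00000032485, chr9:110333288-110384950) was at 72.5 and 72.2 CPM (vehicle) and 52.8 and 55.6 CPM (capmatinib) in NF1-MET cells, and at 71.5 and 73.1 CPM (vehicle) and 52.7 and 53.9 CPM (capmatinib) in NF1-MET;sgP53 cells. It fell in both lines, with log2 fold changes of -0.43 (SE 0.0375, adjusted p = 6.93e-12) for NF1-MET and -0.44 (SE 0.0353, adjusted p = 2.28e-10) for NF1-MET;sgP53. The Insig genes rose. *Insig2* (ENSMUSG00000003721, chr1:121304353-121332589) was at 22.7 and 22.3 CPM (vehicle) and 32.7 and 31.03 CPM (capmatinib) in NF1-MET cells, and at 24.5 and 25.8 CPM (vehicle) and 32.8 and 32.6 CPM (capmatinib) in NF1-MET;sgP53 cells, with log2 fold changes of 0.48 (SE 0.0555, adjusted p = 3.71e-09) for NF1-MET and 0.38 (SE 0.0529, adjusted p = 1.63e-06) for NF1-MET;sgP53. *Insig1*, which is itself a sterol-regulated target, was between 159 and 173 CPM in all 8 libraries. It was higher by only 0.08 (adjusted p = 0.0103) and 0.077 (adjusted p = 0.0343), and with library totals the values turned to -0.11 and -0.045. Its call in NF1-MET did not hold without vehicle replicate 1 or capmatinib replicate 1 (0.070 without either), and its call in NF1-MET;sgP53 held without capmatinib replicate 1 but was lost without any of the other 3 libraries (0.058 to 0.081). *Stard4*, a carrier of sterols between membranes, did not pass in either line, with 95% intervals of -0.013 to 0.12 and -0.12 to 0.017.

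**Figure D3:**
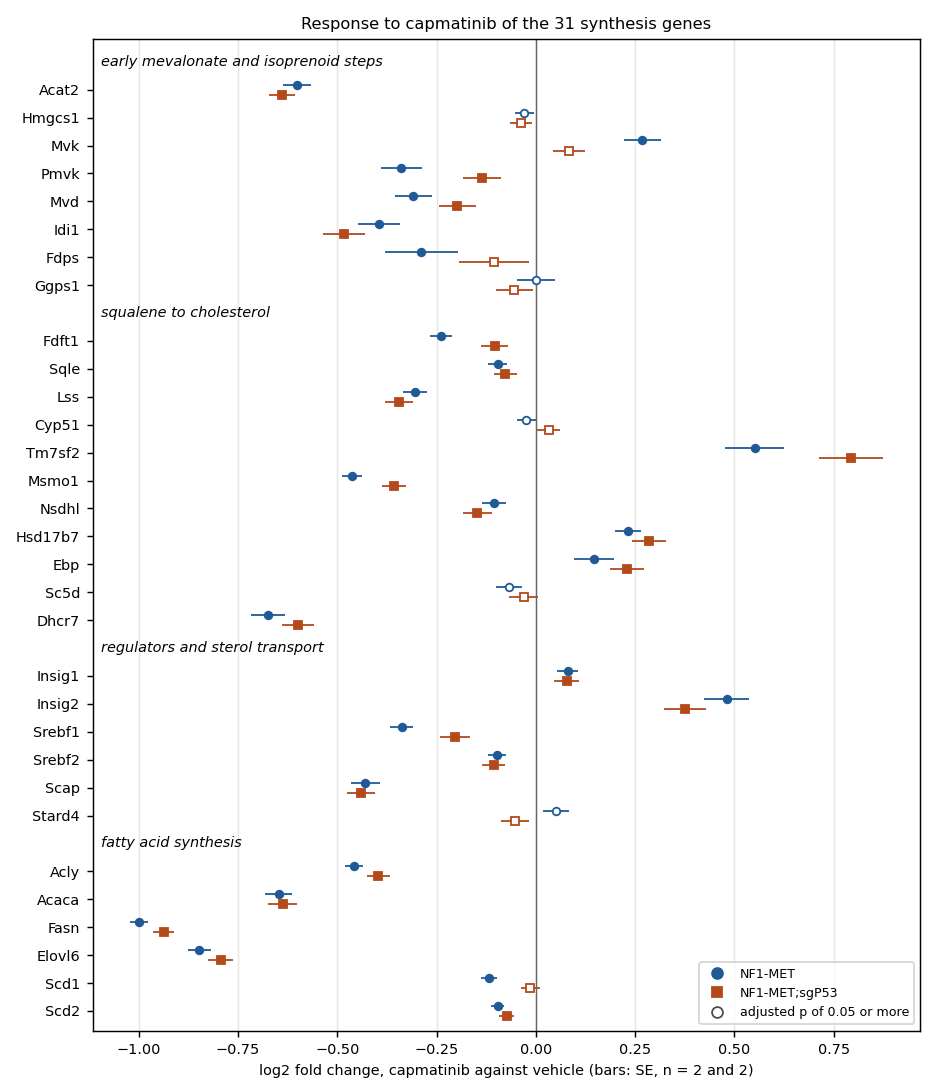
Log2 fold change with capmatinib of the 31 genes in NF1-MET (circles) and NF1-MET;sgP53 (squares), with SE bars, grouped by role; open symbols did not pass the test. The fatty acid genes reach from -0.999 (*Fasn*, NF1-MET) to -0.014 (*Scd1*, NF1-MET;sgP53), and *Tm7sf2* lies highest at 0.55 and 0.79.

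Other genes of sterol and fatty acid handling were counted for comparison, in lists that overlap with none of the 31 genes, and each count is to be read beside the shares of all genes tested (35.5% higher and 34.7% lower in NF1-MET, 34.2% and 33.4% in the other line). In the list of sterol uptake, storage and efflux, 7 of the 17 genes tested were higher and 6 lower in NF1-MET, while 8 were higher and 6 lower in the NF1-MET;sgP53 cells, not far from the shares of all genes. *Mylip*, the ubiquitin ligase that marks lipoprotein receptors for degradation, was at 8.29 and 7.30 CPM (vehicle) and 19.4 and 19.6 CPM (capmatinib) in NF1-MET cells, and at 5.82 and 7.61 CPM (vehicle) and 18.2 and 18.7 CPM (capmatinib) in NF1-MET;sgP53 cells, with log2 fold changes of 1.31 (SE 0.0799, adjusted p = 9.72e-16) for NF1-MET and 1.44 (SE 0.0958, adjusted p = 8.68e-12) for NF1-MET;sgP53. *Lrp8*, a lipoprotein receptor, fell, with log2 fold changes of -1.19 (SE 0.0307, adjusted p = 9.13e-26) for NF1-MET and -1.20 (SE 0.0357, adjusted p = 5.53e-18) for NF1-MET;sgP53. A related receptor, *Vldlr*, was at 108 and 106 CPM (vehicle) and 155 and 159 CPM (capmatinib) in NF1-MET cells, and at 79.2 and 80.3 CPM (vehicle) and 139.8 and 139 CPM (capmatinib) in NF1-MET;sgP53 cells, higher with capmatinib in every library of both lines, with a log2 fold change of 0.80 (SE 0.0353, adjusted p = 5.81e-15) in NF1-MET;sgP53. *Nceh1*, a cholesterol ester hydrolase, was at 56.8 and 56.2 CPM (vehicle) and 29.2 and 27.7 CPM (capmatinib) in NF1-MET cells, and at 50.3 and 47.7 CPM (vehicle) and 28.5 and 30.6 CPM (capmatinib) in NF1-MET;sgP53 cells, and had a log2 fold change of -1.01 (SE 0.0459, adjusted p = 4.03e-19) in NF1-MET.

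Of the 15 genes that use isoprenoids, 7 were lower and 4 higher in NF1-MET, and 10 were lower and 4 higher in NF1-MET;sgP53. *Pdss1*, which makes the side chain of ubiquinone, had log2 fold changes of -0.99 (SE 0.0887, adjusted p = 1.15e-11) for NF1-MET and -1.01 (SE 0.0911, adjusted p = 1.66e-09) for NF1-MET;sgP53. *Rabggta*, a subunit of the Rab prenyltransferase, had -0.92 (SE 0.0690, adjusted p = 1.85e-13) for NF1-MET and -0.95 (SE 0.0676, adjusted p = 2.91e-11) for NF1-MET;sgP53. *Coq2*, which joins that side chain to the ubiquinone ring, fell with -0.34 (SE 0.0564, adjusted p = 3.51e-06) for NF1-MET and -0.39 (SE 0.0570, adjusted p = 2.33e-06) for NF1-MET;sgP53.

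Among the 14 genes of SREBP processing and sterol-linked degradation, 4 were higher and 5 lower in NF1-MET, and 6 higher and 4 lower in NF1-MET;sgP53, again not far from the shares of all genes. *Sec23a*, a subunit of the COPII coat that carries cargo from the endoplasmic reticulum, was at 127 and 124 CPM (vehicle) and 251 and 248 CPM (capmatinib) in NF1-MET cells, and at 136 and 136 CPM (vehicle) and 260.1 and 258 CPM (capmatinib) in NF1-MET;sgP53 cells. The log2 fold changes of 0.97 (SE 0.0268, adjusted p = 5.15e-25) for NF1-MET and 0.93 (SE 0.0309, adjusted p = 4.16e-17) for NF1-MET;sgP53 opposed those of *Scap*, which is such a cargo. *Erlin2*, of the endoplasmic reticulum degradation machinery, rose with 0.36 (SE 0.0340, adjusted p = 4.49e-11) for NF1-MET and 0.34 (SE 0.0344, adjusted p = 1.36e-08) for NF1-MET;sgP53. *Lpin1*, a phosphatidate phosphatase, was at 23.7 and 23.1 CPM (vehicle) and 16.9 and 17.9 CPM (capmatinib) in NF1-MET cells, and at 21.01 and 23.4 CPM (vehicle) and 18.6 and 17.9 CPM (capmatinib) in NF1-MET;sgP53 cells, with a log2 fold change of -0.44 (SE 0.0627, adjusted p = 2.44e-07) in NF1-MET.

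Of the 24 remaining genes of fatty acid synthesis, desaturation and elongation, 8 were higher and 7 lower in NF1-MET, and 9 higher and 8 lower in NF1-MET;sgP53, shares close to those of all genes tested. *Fads3*, a desaturase, was at 78.7 and 80.5 CPM (vehicle) and 178 and 179 CPM (capmatinib) in NF1-MET cells, and at 100.2 and 95.2 CPM (vehicle) and 178 and 181 CPM (capmatinib) in NF1-MET;sgP53 cells, with log2 fold changes of 1.15 (SE 0.0292, adjusted p = 5.92e-26) for NF1-MET and 0.88 (SE 0.0351, adjusted p = 1.10e-15) for NF1-MET;sgP53. *Me1*, the malic enzyme that supplies NADPH, rose with 0.91 (SE 0.0310, adjusted p = 1.62e-22) for NF1-MET and 0.72 (SE 0.0353, adjusted p = 3.95e-14) for NF1-MET;sgP53. *Hacd1*, a dehydratase of fatty acid elongation, was at 20.3 and 22.5 CPM (vehicle) and 30.7 and 29.6 CPM (capmatinib) in NF1-MET cells, and at 18.2 and 17.4 CPM (vehicle) and 29.3 and 30.7 CPM (capmatinib) in NF1-MET;sgP53 cells, with 0.76 (SE 0.0594, adjusted p = 1.52e-10) in NF1-MET;sgP53. *Acsl5*, a fatty acyl-CoA synthetase, was at 165 and 163 CPM (vehicle) and 115 and 114 CPM (capmatinib) in NF1-MET cells, and at 168 and 159.8 CPM (vehicle) and 124 and 126 CPM (capmatinib) in NF1-MET;sgP53 cells, with -0.54 (SE 0.0284, adjusted p = 1.83e-17) in NF1-MET.

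Fatty acid oxidation had more rises than falls, with 14 of 22 genes higher and 2 lower in NF1-MET and 12 higher and 2 lower in NF1-MET;sgP53, and with median log2 fold changes of 0.21 and 0.26. With library totals it had 5 higher and 7 lower genes (median 0.027) in NF1-MET, where falls then outnumbered rises, and 4 higher and 1 lower (median 0.14) in NF1-MET;sgP53. Under the same totals the genes higher and lower in the 2 lines were 5 and 7, then 6 and 6, for sterol uptake, storage and efflux, and 0 and 11, then 0 and 11, for isoprenoid use. They were 3 and 9, then 2 and 5, for SREBP processing, and 5 and 12, then 4 and 8, for the other fatty acid synthesis genes. *Decr1*, the mitochondrial dienoyl-CoA reductase, had 0.70 (SE 0.0553, adjusted p = 6.83e-13) for NF1-MET and 0.56 (SE 0.0525, adjusted p = 3.12e-09) for NF1-MET;sgP53. *Cpt1c*, a carnitine palmitoyltransferase of the brain type, had 0.56 (SE 0.0643, adjusted p = 2.89e-09) for NF1-MET and 0.64 (SE 0.0742, adjusted p = 8.53e-08) for NF1-MET;sgP53. *Hadhb*, a subunit of the trifunctional protein, was at 14.5 and 15.04 CPM (vehicle) and 20.2 and 22.9 CPM (capmatinib) in NF1-MET cells, and at 17.5 and 16.5 CPM (vehicle) and 22.0 and 21.8 CPM (capmatinib) in NF1-MET;sgP53 cells, with a log2 fold change of 0.53 (SE 0.0696, adjusted p = 4.10e-08) in NF1-MET. *Slc25a20*, the carnitine-acylcarnitine carrier, was at 15.3 and 15.6 CPM (vehicle) and 20.5 and 22.8 CPM (capmatinib) in NF1-MET cells, and at 18.6 and 17.1 CPM (vehicle) and 23.7 and 22.7 CPM (capmatinib) in NF1-MET;sgP53 cells, with a log2 fold change of 0.38 (SE 0.0659, adjusted p = 2.42e-05) in NF1-MET;sgP53. For both genes the capmatinib libraries lay above the vehicle libraries in each line. Of the adipocyte markers, *Adipoq*, *Plin1*, *Cidec* and *Lep* were at or below 0.0723 CPM in all libraries and 2 of 6 passed the count filter, while the summed level of the list was 0.234 to 0.436 CPM with vehicle and 1.43 to 1.66 CPM with capmatinib, most of it *Pparg* with vehicle and *Fabp4* with capmatinib. Summed macrophage markers were between 1.77 and 2.12 CPM (2 of 5 passed the filter), with *Adgre1* at 0 counts in every library. The 2 that passed moved in opposite directions. *Cd68* averaged 1.73 CPM (vehicle) and 0.913 CPM (capmatinib) in NF1-MET, and 1.49 and 0.965 CPM in NF1-MET;sgP53. *Csf1r* averaged 0.209 and 0.808 CPM in NF1-MET, and 0.364 and 0.782 CPM in NF1-MET;sgP53. Endothelial markers summed to 0.130 to 0.358 CPM (0 of 4 passed), and epithelial ones to 0.328 to 0.727 CPM with vehicle and 0 to 0.142 CPM with capmatinib (1 of 4 passed). *Gap43*, a growth cone protein and 1 of the 8 Schwann lineage markers, was at 18.4 and 21.5 CPM on average with vehicle in NF1-MET and NF1-MET;sgP53 and at 2.84 and 3.76 CPM with capmatinib. The adipocyte and epithelial sums and *Gap43* did not overlap between vehicle and capmatinib, the endothelial sums overlapped when the lines were pooled but not within a line, and the macrophage sums overlapped within each line. The part of these markers in the results was not tested.

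**Figure D4:**
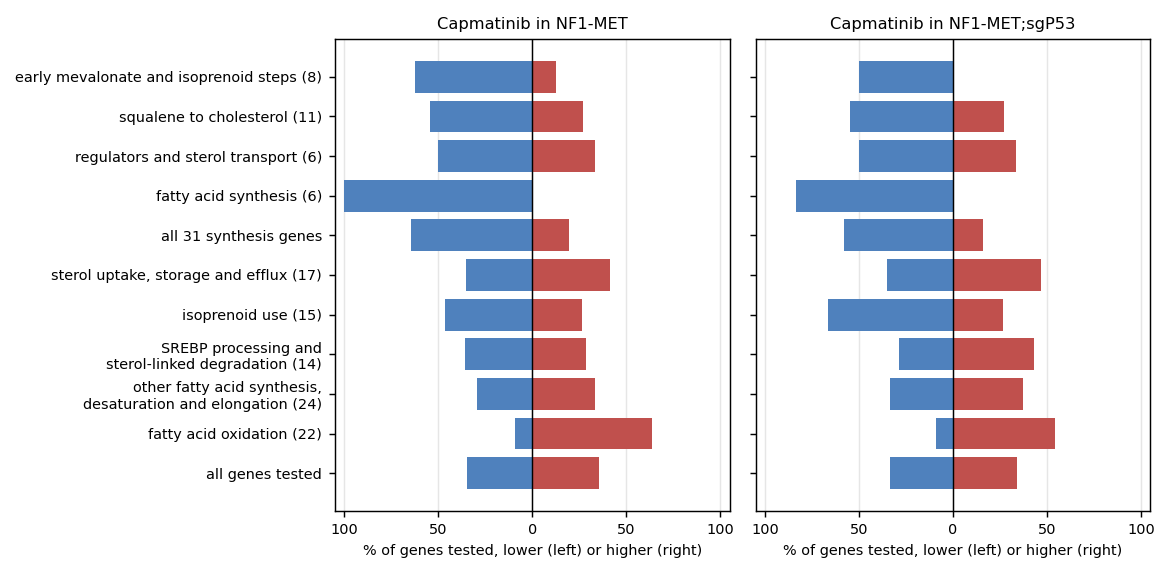
Percent of the genes tested in each list that were lower (left, blue) or higher (right, red) with capmatinib in each line, with the number tested in parentheses and all genes tested at the bottom. The 6 fatty acid synthesis genes lie on the lower side, the 22 fatty acid oxidation genes mostly on the higher side (not with library totals in NF1-MET, where 5 were higher and 7 lower), and all genes are split at 34.7% lower and 35.5% higher in NF1-MET.

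The comparison of NF1-MET;sgP53 with NF1-MET addressed what goes with the loss of p53. With vehicle the differences were small, the largest among the genes that passed being 0.21 for *Mvk* on the log2 scale. Of the 31 genes, 5 were higher and 7 lower in NF1-MET;sgP53 and 19 did not pass, where 10.9% of the 14484 genes tested were higher and 12.3% were lower. Their median was -0.017, beside 0.0024 for all genes tested. The DESeq2 Wald test called 1 of the 31 genes higher and 6 lower. With all 8 libraries in 1 model 7 were higher and 6 lower, and the median of the 31 genes was 0.0025, beside 0.021 for all genes. With library totals in place of TMM factors, which move the all-gene median to 0.060, 1 gene was higher and 0 were lower (all-gene calls then were 1280 higher and 743 lower, in place of 1580 and 1775).

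The 5 higher genes were *Mvk*, *Dhcr7*, *Stard4*, *Elovl6* and *Scd2*. *Mvk* was at 40.9 and 42.4 CPM in the NF1-MET libraries and at 48.5 and 49.1 CPM in those of NF1-MET;sgP53, a log2 fold change of 0.21 (SE 0.0414, adjusted p = 7.41e-04). *Dhcr7* had 0.11 (SE 0.0360, adjusted p = 0.0275), *Stard4* 0.10 (SE 0.0337, adjusted p = 0.0365), and *Elovl6* 0.079 (SE 0.0274, adjusted p = 0.0432). *Scd2* was at 2251 and 2282 CPM in the NF1-MET libraries and at 2379 and 2391 CPM in those of NF1-MET;sgP53, a log2 fold change of 0.055 (SE 0.0173, adjusted p = 0.0272). Without vehicle replicate 2 of NF1-MET, 1 of the 31 genes was higher, without replicate 1 of that group 2 were, and without vehicle replicate 2 of NF1-MET;sgP53 3 were. The call of *Mvk* held without any single library, whereas that of *Elovl6* was lost without one or the other of the NF1-MET libraries (0.060 and 0.098) or vehicle replicate 1 of NF1-MET;sgP53 (0.065). *Dhcr7* did not pass without either NF1-MET library (0.10 and 0.12) or vehicle replicate 2 of NF1-MET;sgP53 (0.088), *Stard4* without vehicle replicate 2 of either line (0.063 and 0.082), and *Scd2* without either NF1-MET library (0.044 and 0.065).

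Of the 7 lower genes, 5 stood between squalene and cholesterol. *Msmo1* had the largest difference, from 315 and 311 CPM in NF1-MET to 281 and 280.0 CPM in the NF1-MET;sgP53 cells, a log2 fold change of -0.18 (SE 0.0252, adjusted p = 2.18e-05). *Fdft1* had -0.13 (SE 0.0298, adjusted p = 0.00222), *Hsd17b7* -0.12 (SE 0.0373, adjusted p = 0.0293), *Cyp51* -0.11 (SE 0.0247, adjusted p = 0.00229) and *Sqle* -0.10 (SE 0.0249, adjusted p = 0.00483). The other 2 were fatty acid genes, *Fasn* with -0.10 (SE 0.0221, adjusted p = 0.00209) and *Scd1* with -0.093 (SE 0.0210, adjusted p = 0.00250). The call of *Scd1* was lost without vehicle replicate 1 of NF1-MET, at -0.076, and that of *Hsd17b7* without the same library or without vehicle replicate 2 of NF1-MET;sgP53, at -0.072 and -0.069.

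The counts of the other lists stand beside 10.9% higher and 12.3% lower over all genes tested. *Abca1*, which exports cholesterol from cells, was at 80.5 and 79.9 CPM in NF1-MET and 50.2 and 48.8 CPM in vehicle-treated NF1-MET;sgP53, a log2 fold change of -0.72 (SE 0.0340, adjusted p = 3.46e-12). In its list of sterol uptake, storage and efflux, 6 of 17 genes were lower and 1 higher, with *Vldlr* at -0.44 and *Nceh1* at -0.23. Of the isoprenoid users, 2 of 15 were higher and 1 lower, near those shares, and of the SREBP processing list 4 of 14 were higher and the others did not pass, with *Erlin1* at 0.22. Of the other fatty acid synthesis genes, 4 of 24 were higher and 4 lower, and *Acsl1* had 0.38, *Hacd1* -0.29 (lost without vehicle replicate 2 of NF1-MET, -0.21) and *Fads3* 0.27. Of the fatty acid oxidation genes, 5 of 22 were higher and 2 lower. The DESeq2 Wald test called 0 higher and 2 lower of the oxidation genes, 1 higher of the SREBP processing list, 1 higher and 4 lower of sterol uptake, storage and efflux, and 0 of the isoprenoid users. With library totals the oxidation genes had 3 higher and 1 lower, SREBP processing 2 higher, sterol uptake, storage and efflux 1 higher and 2 lower, isoprenoid use 1 higher, and the other fatty acid synthesis genes 4 higher and 0 lower.

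With capmatinib, 5 of the 31 genes were higher in NF1-MET;sgP53 and none was lower, where 5.94% of the 14481 genes tested were higher and 6.34% were lower. Their median was 0.013, beside -0.001 for all genes. *Pmvk* had the largest difference, from 27.1 and 27.6 CPM in NF1-MET to 31.6 and 32.6 CPM in NF1-MET;sgP53, a log2 fold change of 0.23 (SE 0.0503, adjusted p = 0.00449). *Dhcr7* followed with 0.19 (SE 0.0445, adjusted p = 0.00768), then *Elovl6* with 0.13 (SE 0.0327, adjusted p = 0.00980). *Sc5d* had 0.10 (SE 0.0298, adjusted p = 0.0443) and *Scd2* 0.081 (SE 0.0150, adjusted p = 0.00121). *Elovl6* no longer passed without capmatinib replicate 2 of NF1-MET (0.11). The call of *Sc5d* was lost without capmatinib replicate 1 (0.10) or replicate 2 (0.090) of NF1-MET and without capmatinib replicate 1 of NF1-MET;sgP53 (0.073). The DESeq2 Wald test called 1 of the 31 genes higher in place of 5. The count of lower genes, 0 with edgeR's quasi-likelihood test and with DESeq2, was 3 at an unadjusted p under 0.05, and it was 1 when all 8 libraries shared 1 model and 2 without capmatinib replicate 1, or without replicate 2, of NF1-MET;sgP53. With library totals, which moved the all-gene median to 0.11, 1 gene was higher (all-gene calls then were 537 higher and 129 lower, in place of 860 and 918). Of the other lists, sterol uptake, storage and efflux had 1 gene higher and 3 lower, isoprenoid use none by edgeR or at an unadjusted p under 0.05, SREBP processing 1 higher (*Erlin1*, 0.25), other fatty acid synthesis 3 higher and 1 lower (*Mcat*, -0.28), and fatty acid oxidation 3 higher. With the DESeq2 Wald test sterol uptake, storage and efflux had 1 higher and 2 lower, other fatty acid synthesis 0 of either, and fatty acid oxidation 1 higher, and with library totals they had 0 of either, 1 higher and 1 higher. *Abca1* was also lower in NF1-MET;sgP53, with -0.24 (SE 0.0516, adjusted p = 0.00431), a call lost without capmatinib replicate 2 of NF1-MET (-0.16).

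**Figure D5:**
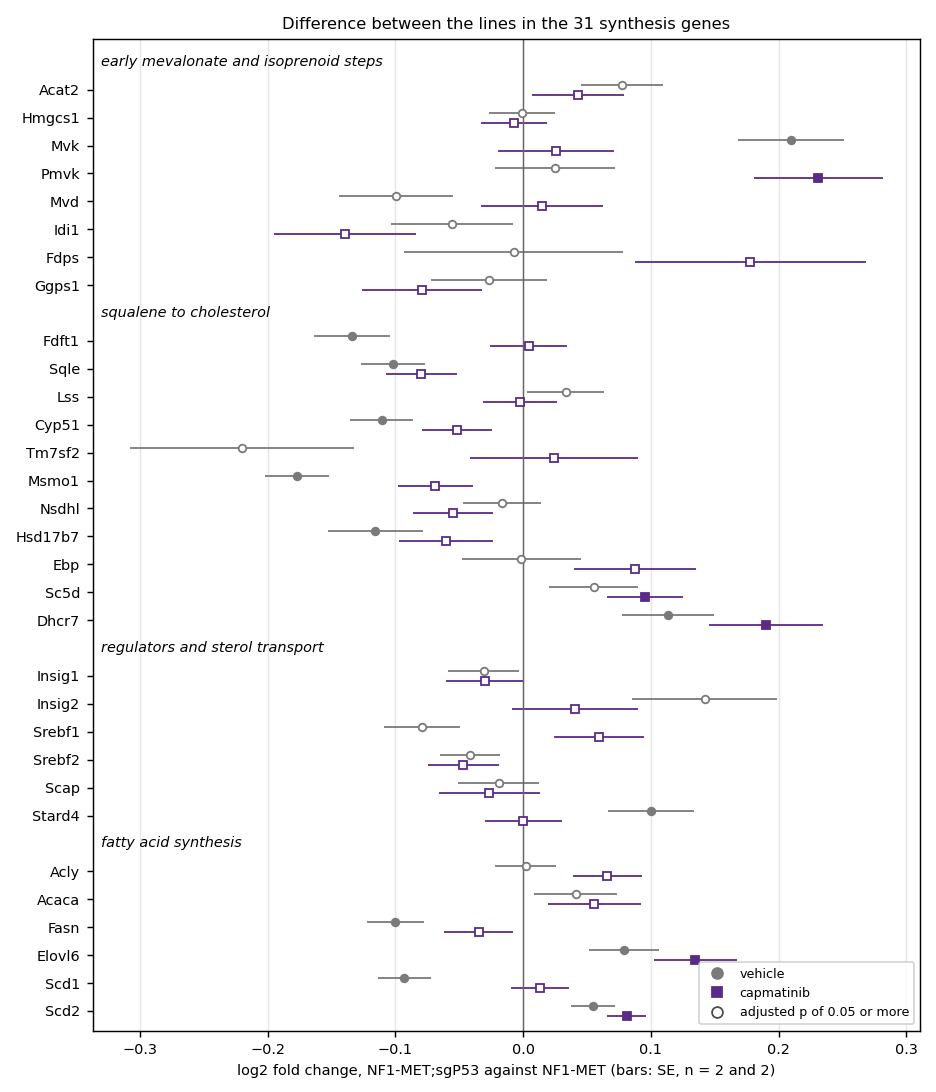
Log2 fold change of NF1-MET;sgP53 against NF1-MET for the 31 genes with vehicle (circles) and with capmatinib (squares), with SE bars, grouped by role; open symbols did not pass the test. The values lie between -0.22 and 0.23, and *Mvk* with vehicle (0.21) and *Pmvk* with capmatinib (0.23) lie farthest to the right.

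The interaction of line and treatment, fitted over all 8 libraries, tested whether the response to capmatinib differed between the lines. For 30 of the 31 genes it did not pass, none was called above 0 by edgeR's quasi-likelihood test (5 at an unadjusted p under 0.05, and 1 by DESeq2) and 1 was called below 0, where 3.85% of the 14497 genes tested were above and 5.86% below. The median interaction of the 31 genes was 0.02, beside -0.026 for all genes tested. *Mvk* was the gene called, with -0.20 (SE 0.0625, adjusted p = 0.0387), which is the response of NF1-MET;sgP53 minus that of NF1-MET on the log2 scale. It rose from 40.9 and 42.4 CPM to 53.0 and 48.9 CPM in NF1-MET, while NF1-MET;sgP53 started higher, at 48.5 and 49.1 CPM, and was at 53.1 and 50.3 CPM with capmatinib. The call was lost with DESeq2's size factors (-0.19) and with library totals (-0.13). It was also lost without vehicle replicate 1 (-0.18) or capmatinib replicate 1 (-0.15) of NF1-MET, and without vehicle replicate 1 (-0.21), vehicle replicate 2 (-0.20) or capmatinib replicate 2 (-0.13) of NF1-MET;sgP53. For the genes with the largest falls, the interaction was 0.045 for *Fasn* (95% interval -0.022 to 0.11), 0.036 for *Elovl6* (-0.051 to 0.12), 0.057 for *Dhcr7* (-0.053 to 0.17) and -0.0051 for *Acaca* (-0.10 to 0.09). A p that misses the threshold does not show that the lines responded alike, and these intervals bound the difference. The number of genes called moved with the libraries used: 3 of the 31 were above 0 and none below without capmatinib replicate 2 of NF1-MET;sgP53, in which *Gm42418* took 1.11% of the counts, and 5 were above and none below when *Gm42418* was left out of the scaling. All-gene calls in that last fit were 872 above and 609 below, in place of 558 and 849, and with library totals they were 192 and 123.

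In the other lists 5 interactions were above 0 and 4 below among the 17, 15, 14, 24 and 22 genes tested. Pooled, these shares were close to the 3.85% above and 5.86% below of all genes tested. By list, calls above and below were 3 and 0 for sterol uptake, storage and efflux and 1 and 3 for other fatty acid synthesis. They were 0 and 1 for SREBP processing and 1 and 0 for oxidation. Without *Gm42418* in the scaling these 4 lists had 4 and 0, 3 and 2, 0 and 0, and 3 and 0. With library totals they had 1 and 0, 0 and 0, 0 and 0, and 1 and 0. Of the 9 genes, 6 are given. *Abca1* fell with capmatinib from 80.5 and 79.9 CPM to 38.6 and 42.6 CPM in NF1-MET and from 50.2 and 48.8 CPM to 35.3 and 33.8 CPM in NF1-MET;sgP53, with an interaction of 0.46 (SE 0.0623, adjusted p = 1.39e-05). *Fads3* had -0.29 (SE 0.0452, adjusted p = 9.90e-05) and *Vldlr* 0.25 (SE 0.0433, adjusted p = 3.05e-04). The other 3 were *Nceh1* (0.27), *Hacd1* (0.27) and *Mcat* (-0.35), and each of these 3 calls was lost without at least 1 library. *Nceh1* was lost without capmatinib replicate 2 of NF1-MET (0.22) or vehicle replicate 2 of NF1-MET;sgP53 (0.23). *Mcat* was lost without vehicle replicate 2 (-0.30) or capmatinib replicate 1 (-0.23) of NF1-MET and without vehicle replicate 1 (-0.29), capmatinib replicate 1 (-0.34) or capmatinib replicate 2 (-0.32) of NF1-MET;sgP53. *Hacd1* kept its call only without vehicle replicate 1 of NF1-MET, its other values being 0.19 to 0.30.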

How the data were processed

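Poly(A) RNA was sequenced from 8 libraries, 2 in each of 4 groups. The labels name Trim Galore (0.4.2), FastQC (0.11.7), STAR (2.5.2b), bcl2fastq (1.9.0) and mm10, and the authors deposited raw read counts per gene, whose annotation release and strand setting are not given in the sources used here. Genes that reached 10 counts in 2 or more of 8 libraries, and were above 0 in 2 or more libraries of a comparison, entered edgeR's quasi-likelihood test (4.0.16, TMM factors, R 4.3.3), adjusted by Benjamini-Hochberg over all genes tested, at a threshold of 0.05. Only the libraries of a comparison entered each fit, and all 8 entered the interaction. CPM used TMM factors over all 8 libraries, and lengths came from GENCODE M21, which held 99.56% of the gene identifiers. SE is the log2 fold change over the square root of F, and 95% intervals treat it as normal. Replicates of a group differed by more than counting noise (median squared difference 1.56 to 1.83 times that of counting alone). Alternatives were other scaling, filters and tests (DESeq2 1.42.0), a replicate block, 1 model for all libraries, and each library left out. The fits were tested beforehand on simulated counts in which 200 genes changed, as many up as down. With capmatinib 5140 genes were higher and 5029 lower in NF1-MET, so the simulation did not test the scaling under changes that wide. All 31 genes were named. From each other list and comparison, at most 3 called genes with the largest change and at least 10 CPM in the higher group were named, and some of these are not reported here. The genes and lists were chosen with earlier results of these data known, and the same libraries serve as controls in several comparisons.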

Additional observations from a re-analysis of the deposited data

Results flagged for a closer look

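The response of *Mvk* to capmatinib differed between the lines by -0.20 on the log2 scale (NF1-MET;sgP53 minus NF1-MET, SE 0.0625, adjusted p = 0.0387 by edgeR's quasi-likelihood interaction test), which was the only one of the 31 genes whose response differed by that test. The value kept its sign in all 16 alternatives, between -0.27 and -0.13, and passed the threshold in 6 of them.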

How the results depend on the processing

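Of the calls with capmatinib, 18 of the 20 lower and 2 of the 6 higher genes in NF1-MET, and 13 of 18 and 2 of 5 in NF1-MET;sgP53, were kept in all 13 alternatives. Between the lines 1 of 5 higher and 0 of 7 lower genes with vehicle, and 0 of 5 higher genes with capmatinib, were kept in all of them. Library totals in place of TMM factors moved most values. For capmatinib the members called higher became 2 in each line and the members' medians -0.30 and -0.23, the values of *Ggps1* (-0.18), *Ebp* (-0.044), *Insig1* (-0.11) and *Stard4* (-0.13) in NF1-MET and of *Mvk* (-0.042), *Cyp51* (-0.091) and *Insig1* (-0.045) in NF1-MET;sgP53 turned negative, and the medians relative to all genes stayed at -0.12 and -0.11. Between the lines with these totals 1 of the members was higher and 0 lower with vehicle (median 0.040), 1 was higher with capmatinib (median 0.13), and 0 had a lower interaction (median 0.099). With DESeq2's size factors *Ggps1* was at -0.00081 in NF1-MET, and the members' interactions were 1 higher and 0 lower. The stricter filter gave a median of -0.098 for capmatinib in NF1-MET;sgP53. The DESeq2 Wald test called 1 of the members higher between the lines with vehicle, 1 with capmatinib, and 1 higher and 0 lower interactions. The bias-adjusted test and the model of all 8 libraries each called 1 of the members lower between the lines with capmatinib. The members' interactions were 5 higher and 0 lower (median 0.055) without *Gm42418* in the scaling, and 2 and 0 with no low-count filter. The cause of these shifts was not tested.

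Over all genes, the DESeq2 Wald test called 833 higher and 1100 lower between the lines with vehicle and 436 and 434 with capmatinib, in place of 1580 and 1775, and 860 and 918. No filter gave 515 and 555 with capmatinib. Interactions over all genes were 558 higher and 849 lower, 433 and 461 with the DESeq2 Wald test, 872 and 609 without *Gm42418*, 746 and 628 with no filter, and 192 and 123 with library totals. With all 8 libraries in 1 model, 2046 were higher and 1533 lower between the lines with vehicle.

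Leaving out 1 library at a time moved the value of *Hmgcs1* in NF1-MET between -0.056 and 0.0023 and that of *Ggps1* between -0.029 and 0.036, and the members' median for capmatinib in NF1-MET;sgP53 between -0.12 and -0.10. Between the lines the members called higher with vehicle ranged from 1 to 4 and those called lower with capmatinib from 0 to 2, with a median of -0.0026 to 0.015. For the interaction, 0 to 3 members were higher and 0 to 1 lower.

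Differences between replicates 1 and 2 correlated between the groups compared by -0.022, 0.23, 0.16 and -0.066, so the numbers were not taken to pair the samples. With replicate number as a block, the members called higher and lower were 6 and 21, and 5 and 18, for capmatinib in the 2 lines, 5 and 9 with vehicle and 5 and 0 with capmatinib between the lines, and 0 and 1 for the interaction. Counts of at least 259 per library stood behind every member, with 2 libraries per group.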
